A study of Mus musculus with 9 samples.

Results

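HOXA13-only sites are places in the mouse genome where every wild-type HOXA13 library of distal forelimb carried a peak and no wild-type HOXD13 library did. All intervals of the 6 wild-type (wt) peak lists that shared at least 1 bp were merged, which gave 138528 sites, and a site was kept when an interval of each of the 3 HOXA13 lists overlapped it and none of the 3 HOXD13 lists did. The rule left 1827 sites, or 1.32% of all merged sites. They were chosen on measured calls, so their calls and peak values in the 6 wt lists are given as a description without a test. The same rule with the antibodies exchanged kept 44 HOXD13-only sites.

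The data are CUT&RUN libraries, in which an antibody tethers micrococcal nuclease to a DNA-bound protein and the released fragments are sequenced. Cells came from distal forelimbs, the part of the limb bud that forms the digits, of B6CBAF1 embryos. The wt groups held 3 HOXA13 and 3 HOXD13 libraries at E12.5, of which HOXD13 replicate 3 is labelled as a reanalysis of an earlier sample. The II1 T-DOM 542 line (542) added 2 libraries for HOXA13, titled E12.5, and 1 for HOXD13, titled E11.5, while the growth protocol gives a single collection day for all samples. Embryos of this line were homozygous for a single-copy insertion of the II1 enhancer with an HBB promoter and a lacZ reporter into T-DOM, the telomeric regulatory landscape of HoxD. It is a single insertion line, and the HOXD13 group has no replicate. Its 2 HOXA13 libraries and 1 HOXD13 library differ in antibody, labelled stage, listed read length and depth at once. Tissue of several embryos was pooled for a library, and p-values measure only the spread between such libraries.

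HOXA13 and HOXD13 are homeodomain transcription factors encoded at the 5′ ends of the HoxA and HoxD clusters. They are produced together in the cells of the future hand and foot, where they are needed for digit formation, and their homeodomains recognise closely related AT-rich DNA words with a TAAA core. Many enhancers of limb genes lie far from the gene start, in introns or gene deserts.

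The lists differed in length and depth. The wt HOXA13 lists held 86941, 58642 and 57367 intervals for replicates 1, 2 and 3, and the wt HOXD13 lists held 23939, 76838 and 37589. Depth, recovered from the genome background of the peak caller, was 55.3, 47.1 and 44.6 M read ends for wt HOXA13 and 38.6, 59.8 and 36.9 M for wt HOXD13. HOXD13 replicates 1 and 3 were thus shallower than all HOXA13 libraries, and HOXD13 replicate 2 was deeper than all of them. The 542 HOXA13 libraries held 63.9 and 44.7 M read ends with 99090 and 74344 intervals, and the 542 HOXD13 library was the deepest with 65.5 M and had the longest list with 117719 intervals.

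The sequences of the strongest members show what lies under these peaks. Each is a window on the plus strand of GRCm38.p6 (RefSeq), the assembly of mm10, with the main summit at its centre, and capitals mark the HOX13 consensus, searched as CCNATAAA, CTNATAAA, CCNGTAAA or CTNGTAAA on both strands. The first 4 are the highest-ranked members in the wt HOXA13 lists, which were added to the printed set after their values were seen. They are at chr19:18411058-18411158, chr10:7063517-7063617, chr9:11164493-11164593 and chr5:43049755-43049855.
Ostf1 site: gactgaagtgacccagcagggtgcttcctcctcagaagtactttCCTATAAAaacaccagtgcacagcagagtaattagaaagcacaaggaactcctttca
Ipcef1 site: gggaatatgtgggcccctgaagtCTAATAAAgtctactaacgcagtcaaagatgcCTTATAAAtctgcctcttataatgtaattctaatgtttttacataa
Cntn5 site: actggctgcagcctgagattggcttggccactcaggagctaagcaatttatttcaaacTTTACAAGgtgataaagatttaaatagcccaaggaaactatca
Cpeb2 site: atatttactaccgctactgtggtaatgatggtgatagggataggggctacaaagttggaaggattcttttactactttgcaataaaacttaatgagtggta
Of these, 3 carried a consensus word in the window, and the Ipcef1 site carried 2. The Cpeb2 site holds none of the 4 words in its window.

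The next 6 sequences belong to the highest-ranked members that both 542 HOXA13 lists called and the 542 HOXD13 list did not, the sites closest to the label. They are named by the nearest protein-coding start and lie at chr7:117132478-117132578, chr3:116991904-116992004, chr11:76338441-76338541, chrX:14203454-14203554, chr11:117113352-117113452 and chr5:142229424-142229524.
Xylt1 site: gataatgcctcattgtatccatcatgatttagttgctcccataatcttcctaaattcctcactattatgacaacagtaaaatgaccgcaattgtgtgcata
Palmd site: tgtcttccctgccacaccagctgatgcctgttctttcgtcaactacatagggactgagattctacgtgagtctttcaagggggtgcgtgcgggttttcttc
Nxn site: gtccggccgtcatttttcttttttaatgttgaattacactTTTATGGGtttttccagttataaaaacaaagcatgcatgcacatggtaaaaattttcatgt
H2al1n site: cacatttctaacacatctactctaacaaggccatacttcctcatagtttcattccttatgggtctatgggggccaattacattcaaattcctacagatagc
Sec14l1 site: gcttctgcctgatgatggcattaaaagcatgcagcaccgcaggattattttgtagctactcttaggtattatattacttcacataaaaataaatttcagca
Foxk1 site: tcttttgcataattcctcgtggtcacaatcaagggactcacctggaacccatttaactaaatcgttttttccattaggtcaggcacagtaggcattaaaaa
Only the Nxn site among these 6 held a consensus word in the window, on the minus strand and starting 10 bp before the summit.

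HOXA13-only sites were mostly weak among the sites that all 3 wt HOXA13 lists called, though not within each list. Their median within-list percentile of −log10 p, in which 100 is the strongest interval, was 57.4, 43.6 and 41.1 in HOXA13 replicates 1, 2 and 3. Among the 30032 sites called in all 3 wt HOXA13 lists, 6.08% had no HOXD13 call. Sites were ranked by the median over the 3 HOXA13 lists of that percentile. In the weakest quintile of the 30032 sites 18.5% were HOXA13-only (1121 sites), in the next quintile 8.63% (513), then 2.61% (157), 0.583% (35), and in the strongest quintile 1 site. The median fold enrichment of members was 4.30, 3.48 and 3.12 in HOXA13 replicates 1, 2 and 3, against 3.76, 3.65 and 3.30 over all intervals of these lists and 8.30, 6.35 and 4.46 at the 13916 sites called in all 6 wt lists. Fold enrichment is the read pile-up at the summit over the local background, as the peak caller gave it.

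**Figure D1:**
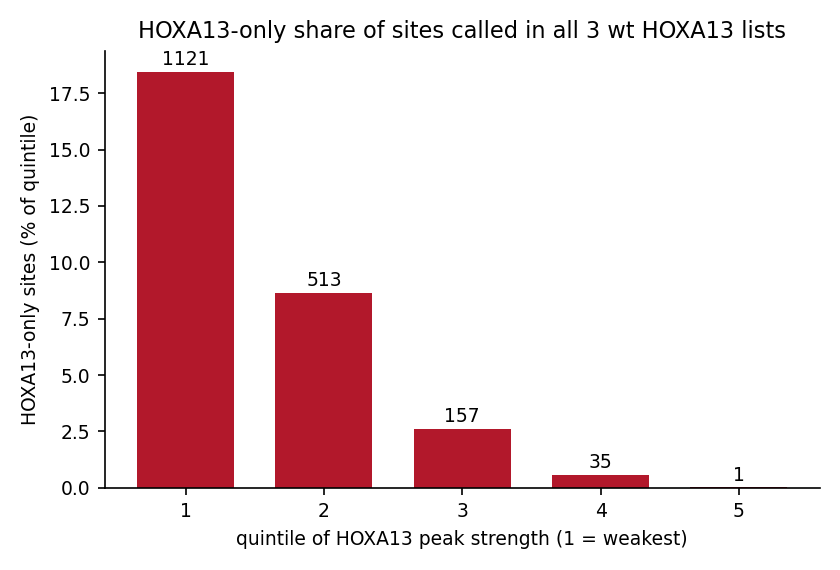
Bars show, for each quintile of HOXA13 peak strength (x axis, 1 is weakest), the percentage of sites called in all 3 wt HOXA13 lists that no wt HOXD13 list called (y axis), with the number of such sites above each bar. The share falls from 18.5% in the weakest quintile to 1 site in the strongest.

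The edge of the rule passed close to many sites. The lowest −log10 q of a member was 1.33, 1.36 and 1.30 in HOXA13 replicates 1, 2 and 3, next to the q threshold of 0.05, and 242 members had a −log10 q under 2 in replicate 3. Just outside the rule were 5919 sites called in all 3 HOXA13 lists and in 1 HOXD13 list, and 4720 of these owed that call to HOXD13 replicate 2, 1046 to replicate 3 and 153 to replicate 1. The lowest −log10 q of those single HOXD13 calls was 1.32, 1.31 and 1.39, respectively. The number of members therefore moved with single libraries. It was 6548 without HOXD13 replicate 2, 2875 without HOXD13 replicate 3, 1979 without HOXD13 replicate 1, 6138 without HOXA13 replicate 3, 4551 without HOXA13 replicate 2 and 2097 without HOXA13 replicate 1. Of the 1827 members, 132 lay within 500 bp of a wt HOXD13 interval, and the median distance to the nearest was 7445 bp.

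Whether a label given in this way held in libraries left out of the rule was read first in held-out wt libraries. The rule was applied to 2 replicates of each antibody and the chosen sites were read in the remaining HOXA13 and HOXD13 library. These looser rules chose other sets of sites, so the reading is about the rule and not about the 1827 members. With replicate 1 held out, HOXA13 replicate 1 called 86.6% of 2262 HOXA13-only sites (95% Wilson interval 85.1 to 87.9) and HOXD13 replicate 1 called 7.29% (6.29 to 8.44), where these libraries called 54.3% and 18.3% of the 117457 sites merged from the same 4 lists. With replicate 2 held out, HOXA13 replicate 2 called 59.2% of 11100 sites (58.3 to 60.1) and HOXD13 replicate 2 called 59.0% (58.1 to 59.9), against 42.3% and 48.3% of the 108740 sites merged without replicate 2. With replicate 3 held out, the values were 39.9% (38.8 to 41.0) and 17.3% (16.5 to 18.2) of 7425 sites, against 34.2% and 24.2% of the 120971 sites merged without replicate 3. Such intervals cover counting error only, and sites within a library are not independent replicates. The held-out HOXA13 library thus called far more of the chosen sites than the held-out HOXD13 library in folds 1 and 3, while in fold 2 both called the same share within counting error.

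A longer list calls more of any sites, so each held-out library was also given the log2 ratio of the share of HOXA13-only sites to the share of HOXD13-only sites it called. This ratio was 0.47, 2.43 and 0.61 for HOXA13 replicates 1, 2 and 3, and -1.10, -0.08 and -0.98 for HOXD13 replicates 1, 2 and 3. The 2.43 rests on 9 of 82 HOXD13-only sites called, in the fold where both antibodies called a like share of HOXA13-only sites. In these same-numbered folds all HOXA13 values lay above all HOXD13 values, with means of 1.17 ± 1.09 and -0.72 ± 0.56 (SD, n = 3 each) and a difference of 1.89. A two-sided exact permutation test of the antibody label gave p = 0.1, the smallest value that 3 against 3 libraries allow, and 0.15 after Benjamini-Hochberg adjustment over 3 tests. Only labels of the held-out libraries were exchanged while the sites stayed chosen by antibody, so this test cannot decide whether the label holds. Over all 9 pairings of a held-out HOXA13 with a held-out HOXD13 library the difference was 0.88 (exact permutation p = 0.4). The order of the antibodies was reversed in some of these pairings. With HOXA13 replicate 3 and HOXD13 replicate 2 held out, they called 38.2% and 65.0% of 17555 HOXA13-only sites, with ratios of -0.88 and 0.78. HOXA13 replicate 3 was also negative, at -0.69, beside HOXD13 replicate 1, which was at -0.97. HOXD13 replicate 3 was at 0.56 against 0.20 for HOXA13 replicate 1.

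**Figure D2:**
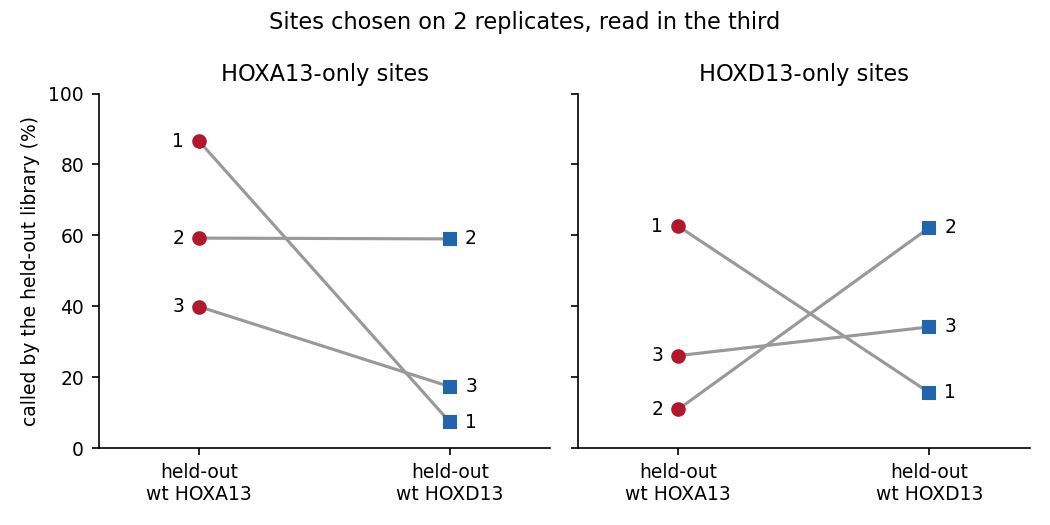
Points show the percentage of HOXA13-only sites (left) and HOXD13-only sites (right) that a held-out wt library called (y axis), when the sites were chosen on the other 2 replicates of both antibodies; lines join the HOXA13 (circles) and HOXD13 (squares) libraries with the replicate number printed. For HOXA13-only sites the lines fall from 86.6% to 7.29% and from 39.9% to 17.3% in replicates 1 and 3 and are level at 59% in replicate 2.

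The 542 HOXD13 library went against the label at most members. Of the 1827 members, 70 on chromosome 2 past the insertion were left out. The 542 HOXA13 replicates 1 and 2 called 91.5% (90.1 to 92.7) and 85.9% (84.2 to 87.4) of the other 1757, where they called 52.3% and 43.1% of all merged sites. The 542 HOXD13 library called 74.4% of them (72.3 to 76.4), where it called 47.4% of all merged sites. The shares at sites called in all 6 wt lists were 99.2%, 98.8% and 93.5% in the same order, and at sites with a single wt HOXD13 call 94.0%, 89.4% and 82.4%.

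Taken by combination, 1201 members (68.4%) were called in all 3 of the 542 lists, 87 (4.95%) in none, and 271 (15.4%, 13.8 to 17.2) in both 542 HOXA13 lists and not in the 542 HOXD13 list. Of all merged sites, 34.2% were called in all 3 of the 542 lists and 39.6% in none. The combination that the label describes occurred at 6.41% of all merged sites. It occurred at 10.7% of sites with 1 wt HOXD13 call and at 5.62% of sites called in all 6 lists. Where the 542 libraries called a member, the median within-list percentile was 70.3 and 62.7 for HOXA13 replicates 1 and 2 and 71.1 for HOXD13. Over all merged sites called by the same libraries it was 63.8, 59.6 and 71.7. The median fold enrichment at called members was 5.63, 5.01 and 4.75. These medians come from lists of different length and from different members, so the libraries were not compared by them.

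**Figure D3:**
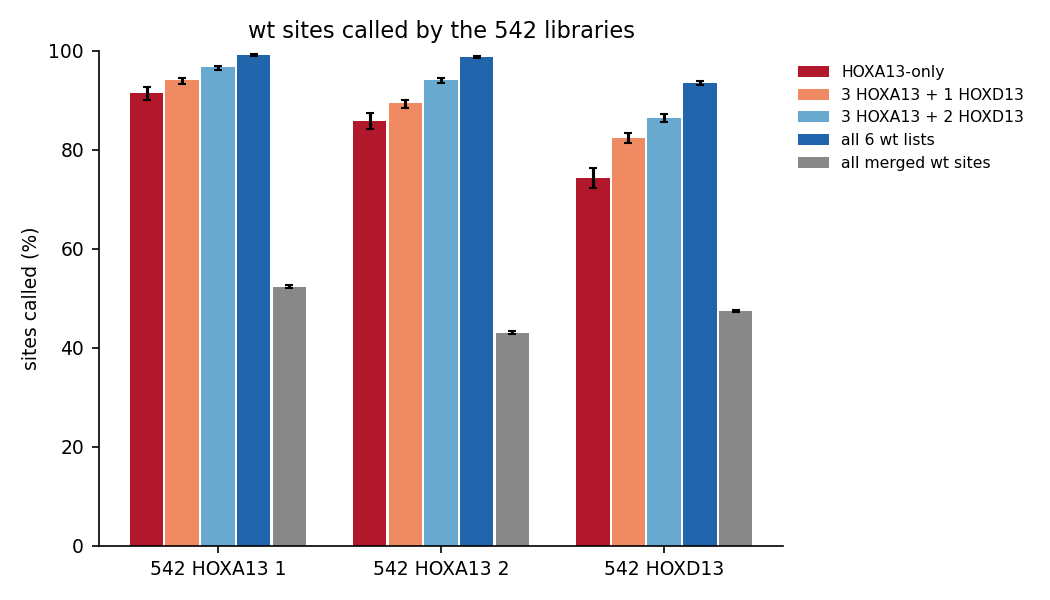
Bars show the percentage of wt sites (y axis) that each 542 library called (x axis), for HOXA13-only sites, sites of all 3 wt HOXA13 lists with 1 or 2 wt HOXD13 calls, sites of all 6 wt lists and all merged wt sites; error bars are 95% Wilson intervals. HOXA13-only sites reach 91.5%, 85.9% and 74.4%, above all merged sites in each library and below the sites of all 6 lists.

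Against HOXD13-only sites, of which 40 could be read in the 542 lists, the ratio was higher in both HOXA13 libraries than in the HOXD13 library. The 542 HOXA13 libraries called 37.5% and 25.0% of HOXD13-only sites and the 542 HOXD13 library called 62.5%. The log2 ratio of the share of HOXA13-only to HOXD13-only sites was 1.29 and 1.78 for 542 HOXA13 and 0.25 for 542 HOXD13, a difference of 1.28. The HOXD13 arm is 1 library without a spread of its own, and labelled stage, read length and depth cannot be told apart from antibody. The two-sided exact permutation test then reads only the order of 3 values and gave p = 0.333, the smallest it allows (0.333 after Benjamini-Hochberg adjustment), so no difference between antibodies was shown. This difference was 0.42 without wt HOXA13 replicate 1, 0.63 without wt HOXA13 replicate 3 and 0.75 without wt HOXD13 replicate 2. Peak names of replicate 3 follow another pattern than those of replicates 1 and 2 in both antibodies, and with sites chosen on replicates 1 and 2 alone the difference was 0.82, and on replicate 3 alone 0.22. When every list was cut to its 20000 strongest intervals, 569 sites were HOXA13-only, and the 542 lists of the same length called 83.3%, 84.8% and 53.9% of them for HOXA13 replicates 1 and 2 and HOXD13, where they called 45.5%, 46.1% and 40.8% of all sites merged from such lists.

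Stronger members were called more often in every 542 library. Of the 100 highest-ranked members that could be read, 99.0%, 99.0% and 89.0% were called by 542 HOXA13 replicates 1 and 2 and 542 HOXD13. Of the 757 members below rank 1000 the shares were 85.3%, 75.8% and 65.9%. By quintile of HOXA13 strength, the shares at members and at sites of all 6 wt lists lay closer in the stronger quintiles. Strength was not matched within a quintile, and the weakest spanned percentiles 1.05 to 53.4. In the weakest quintile the 542 HOXD13 library called 69.9% of members and 84.2% of sites of all 6 lists, in the third quintile 87.3% and 90.1%, and in the fourth 94.3% of 35 members and 94.2%.

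Individual sites showed both outcomes. The highest-ranked member, chr19:18410691-18411545, was intergenic, 221 kb from the start of Ostf1, a gene named for osteoclast stimulation. Its fold enrichment was 11.7, 10.3 and 2.31 in wt HOXA13 replicates 1, 2 and 3, 8.32 and 9.94 in 542 HOXA13 and 6.76 in 542 HOXD13. Replicates 1 and 2 were thus high and replicate 3 low, where the peak was at percentile 5.1 of its list.

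The second, chr10:7063205-7064103, lay 11.1 kb upstream of Ipcef1, with 10.7, 4.31 and 6.42 in wt HOXA13, 4.85 and 4.49 in 542 HOXA13 and 3.75 in 542 HOXD13. The third, chr9:11164060-11165117, lay 260 kb upstream of Cntn5, which encodes a neuronal adhesion protein of the contactin family, with 11.3, 8.02 and 3.82 in wt HOXA13, 13.4 and 11.1 in 542 HOXA13 and 8.27 in 542 HOXD13. The fourth, chr5:43049446-43050249, lay 183 kb upstream of Cpeb2, which encodes an RNA-binding regulator of translation. It reached 9.13, 7.76 and 4.88 in wt HOXA13, 15.9 and 13.1 in 542 HOXA13 and 13.6 in 542 HOXD13. All 4 of the highest-ranked members were therefore called by the 542 HOXD13 library, and the Cpeb2 site was at percentile 98.7 of that list.

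Of the 6 highest-ranked sites without a 542 HOXD13 call, the first held rank 16 among all members. It lay 248 kb upstream of Xylt1, which encodes a xylosyltransferase that starts glycosaminoglycan chains on proteoglycans, with fold enrichments of 7.43, 5.47 and 5.43 in wt HOXA13 and 8.04 and 5.36 in 542 HOXA13. The site 23.0 kb upstream of Palmd had 8.54, 4.47 and 5.18 in wt and 7.13 and 6.82 in 542 HOXA13. Over the 5 HOXA13 libraries these sites ranged from 4.47 to 8.54, and no HOXD13 list held an interval there.

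The intronic site in Nxn, a thioredoxin family gene, had 5.15, 5.13 and 4.08 in wt and 3.29 and 4.08 in 542 HOXA13. The site 172 kb upstream of Foxk1, a forkhead transcription factor gene, had 5.02, 5.25 and 3.32 in wt and 3.86 and 2.93 in 542 HOXA13. The sites near H2al1n and Sec14l1 ranged from 2.42 to 7.03 and from 3.06 to 4.24 over the 5 HOXA13 libraries. Across all 271 sites of this kind the median fold enrichment was 4.19, 3.48 and 3.10 in wt HOXA13 and 4.20 and 3.98 in 542 HOXA13, against 4.49, 3.59 and 3.15 and then 6.34 and 5.36 at the 1201 members that all 542 lists called. In the wt libraries the medians of both sets were close, and in 542 HOXA13 those of the 1201 were the higher, a difference that was not tested.

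HOXA13-only sites lay away from gene starts, as shares and medians over sites that were given no test. Of the 1827, 2.74% (2.08 to 3.59) came within 1 kb of the start of a protein-coding transcript, against 28.4% (27.6 to 29.1) of sites of all 6 wt lists, 12.6% of sites with 1 HOXD13 call, 31.8% of the 44 HOXD13-only sites and 12.6% of all merged sites. The median distance from summit to the nearest protein-coding start was 67.4 kb, against 29.1 kb at sites of all 6 lists and 37.3 kb over all merged sites, and 40.6% of members were over 100 kb away. The summit was in an intron at 54.4% of members, between genes at 42.7% and in an exon at 2.96%. Members were found on all autosomes and on X, where they made up between 3.67% (chromosome 7) and 8.12% (X) of the sites called in all 3 HOXA13 lists.

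The low share at promoters was seen at each level of peak strength. In the weakest quintile it was 3.39% of members, 18.6% of sites with 1 HOXD13 call, 27.0% with 2 and 43.2% with 3. In the second quintile the shares were 1.56%, 10.5%, 22.1% and 37.5%, and in the third 2.55%, 7.37%, 16.6% and 36.0%. These shares moved with HOXD13 replicate 2. Without it in the rule, 11.8% of members came within 1 kb of a start, and of the sites whose single HOXD13 call came from replicate 2, 15.3% did so, against 3.27% for replicate 1 and 1.72% for replicate 3. The share of all its intervals at promoters was 19.6% in HOXD13 replicate 2, 26.0% and 18.8% in HOXD13 replicates 1 and 3, and 16.1%, 18.5% and 14.7% in the HOXA13 lists. HOXD13 replicate 2 was also the deepest wt library, and the part of depth in this difference was not tested.

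**Figure D4:**
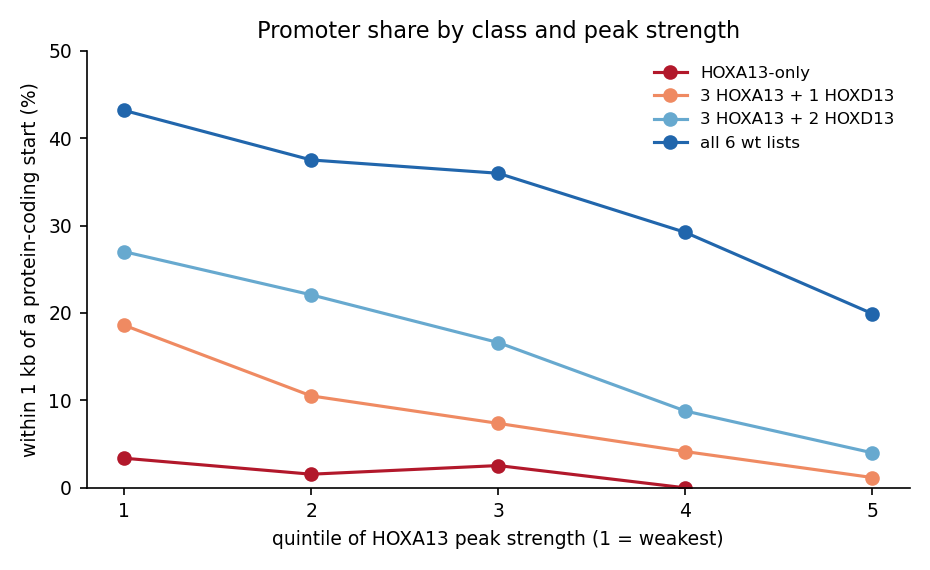
Lines show the percentage of sites within 1 kb of a protein-coding start (y axis) in each quintile of HOXA13 peak strength (x axis, 1 is weakest), for sites called in all 3 wt HOXA13 lists with 0, 1, 2 or 3 wt HOXD13 calls; quintiles with under 20 sites are not drawn. HOXA13-only sites stay at or under 3.39% in each quintile drawn, while sites of all 6 lists start at 43.2% in the weakest.

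Sequence at the summit was richer in A and T at members than at sites of all 6 lists. Over 200 bp around the summit the median GC content was 40.0%, 40.0% and 39.5% in wt HOXA13 replicates 1, 2 and 3, against 44.0%, 44.0% and 43.5% at sites of all 6 lists, and in the HOXD13 lists it was 51.8%, 52.5% and 51.0% at HOXD13-only sites. The GC box word GGGCGG occurred within 50 bp windows at 0.821%, 0.438% and 0.766% of member summits, against 7.42%, 7.39% and 5.89% at sites of all 6 lists. At sites with 1 HOXD13 call, the summits of that call had 35.0%, 45.0% and 37.0% GC for HOXD13 replicates 1, 2 and 3. The GC box word was at 0%, 4.18% and 0.287% of them. Promoters, with 2.74% of members and 28.4% of sites of all 6 lists, were not set apart here, and their part was not tested. The summit fell in sequence that the reference masks as repeats at 6.62%, 6.73% and 10.1% of members.

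The HOX13 consensus was concentrated at member summits. It lay in the 50 bp around the summit at 20.9%, 18.6% and 13.3% of members in wt HOXA13 replicates 1, 2 and 3. In 542 HOXA13 replicates 1 and 2 it lay there at 24.9% of the 1607 and 22.9% of the 1509 members that they called. In 50 bp windows 1000 bp to either side it occurred at 2.55% to 2.92% in these libraries, and 8.76% of all merged sites held it at their main summit. At the 1307 members that 542 HOXD13 called, 20.3% of its summits carried the consensus, against 2.60% of flanking windows. Anywhere within the site, 66.6% of members held a consensus word, against 62.4% of sites with 1 HOXD13 call, 61.6% with 2 and 64.8% of sites of all 6 lists. The length searched was not alike, with median widths of 644, 794, 926 and 1128 bp in the same order, and was not corrected for.

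Sites of all 6 wt lists carried the consensus at 15.7%, 15.7% and 12.2% of wt HOXA13 summits and at 17.7% and 17.0% of 542 HOXA13 summits. Members were higher than sites of all 6 lists in 5 of 5 libraries. The differences were 5.24, 2.94, 1.13, 7.20 and 5.83 percentage points in the same order, with a mean of 4.47 ± 2.42 (SD, n = 5). A two-sided exact sign-flip permutation test gave p = 0.0625, the smallest that 5 libraries allow, and 0.15 after Benjamini-Hochberg adjustment. The libraries share the sites, so this p covers only differences between libraries. The 542 shares cover only sites that the library itself called. For 542 HOXA13 replicates 1 and 2 these were 91.5% and 85.9% of members and 99.2% and 98.8% of sites of all 6 lists. Over the 3 wt HOXA13 libraries alone the mean difference was 3.10 percentage points (exact sign-flip permutation p = 0.25). The mean was 2.29 without wt HOXA13 replicate 3, 2.63 without wt HOXA13 replicate 2 and 2.68 without wt HOXD13 replicate 2, and it was 2.58 with sites chosen on replicates 1 and 2 alone and 0.84 on replicate 3 alone. Members were higher in only 4 of 5 libraries without wt HOXA13 replicate 2, without wt HOXD13 replicate 2 (exact sign-flip permutation p = 0.125 each) and on replicate 3 alone (p = 0.438), with wt HOXA13 replicate 3 lower by values of -0.71, -0.35 and -2.37 percentage points. Outside promoters the consensus was at the main summit of 20.1% of members, 19.2% of sites with 1 HOXD13 call and 17.7% of sites of all 6 lists. The main summit was taken over all 6 wt lists. It was thus a HOXA13 summit at members and could be a HOXD13 summit at the other sites. Promoters included, HOXD13 summits at sites of all 6 lists held the consensus at 13.3%, 13.7% and 9.90% for replicates 1, 2 and 3. Within quintiles of strength and outside promoters it was at 16.3% against 9.50% in the weakest quintile, 22.4% against 9.80% in the second, and 33.3% against 12.6% in the third.

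**Figure D5:**
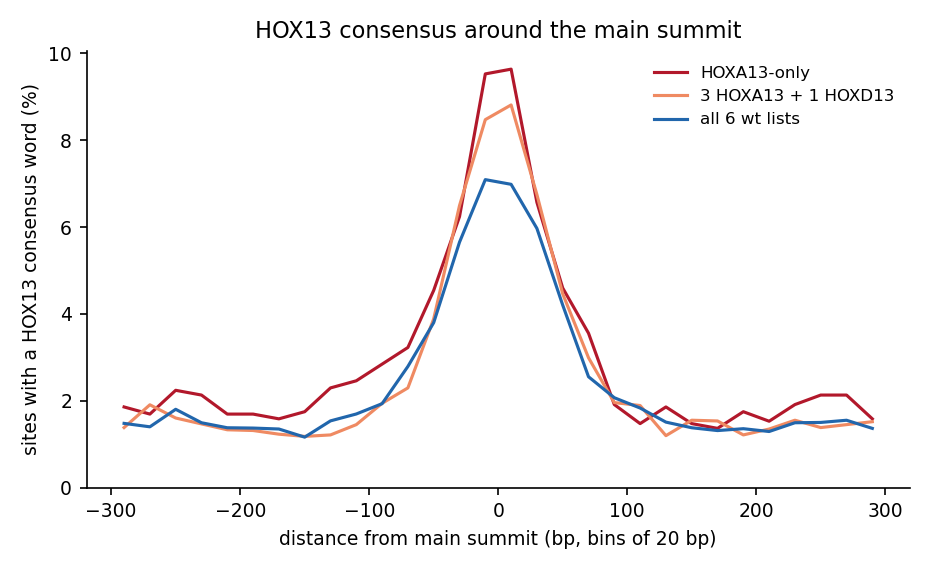
Lines show the percentage of sites with a HOX13 consensus word (y axis) centred in bins of 20 bp around the main summit (x axis, distance in bp), for HOXA13-only sites, sites with 1 wt HOXD13 call and sites of all 6 wt lists. All 3 curves peak at the summit and fall off within 100 bp on either side. The peaks are 9.63% for HOXA13-only sites, 8.81% for sites with 1 wt HOXD13 call and 7.09% for sites of all 6 lists. The main summit is taken over all 6 wt lists, so it can be a HOXD13 summit at sites other than HOXA13-only sites.

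Both forms of the consensus were found at members. The form with ATAAA was at 14.6%, 13.5% and 9.58% of wt HOXA13 summits and the form with GTAAA at 6.73%, 5.64% and 3.94%. At the 271 members without a 542 HOXD13 call the consensus was at 15.5% and 16.6% of 542 HOXA13 summits, and at the 1201 members that all 542 lists called it was at 27.9% and 24.6%. These values were not tested against each other. Of the 100 highest-ranked members that could be read in the 542 lists, 42.0% held the consensus at the main summit, and of the 757 below rank 1000, 15.5% did. The AP-1 word TGANTCA was at 1.86%, 1.37% and 1.26% of member summits in wt HOXA13 replicates 1, 2 and 3, against 1.67%, 1.29% and 1.72% of flanking windows.

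The median width of a member was 644 bp (range 246 to 1576). It was 411 bp over all merged sites, 591 bp at HOXD13-only sites, 794 bp with 1 HOXD13 call, 926 bp with 2 and 1128 bp at sites of all 6 lists. A merged site can only widen as more lists add intervals to it, so widths of sites with different numbers of calls are not alike in this. The 271 members without a 542 HOXD13 call had a median of 613 bp and the 1201 with one 668 bp.

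The Hox loci held few members, but members were also only 6.08% of all sites called in all 3 wt HOXA13 lists. These counts are too small to set the loci apart from that share. In the HoxD locus, from the start of the centromeric domain C-DOM to the insertion site, 1 of the 1827 lay. Of sites called in all 3 HOXA13 lists, 13 there had 1 HOXD13 call, 23 had 2 and 41 were called in all 6 wt lists. Over the genome these classes held 5919, 8370 and 13916 sites. The member, chr2:75081202-75081840, had fold enrichments of 2.89, 2.65 and 3.95 in wt HOXA13 and 3.32 and 2.94 in 542 HOXA13, and 5.12 in 542 HOXD13, the highest of its values. Within 500 kb of the HoxA cluster there were 2 members, 8 sites with 1 HOXD13 call, 14 with 2 and 33 of all 6 lists. One member, chr6:51835676-51836353, had 4.04, 5.25 and 2.63 in wt HOXA13, 5.08 and 4.91 in 542 HOXA13 and 3.55 in 542 HOXD13. The other, chr6:51728937-51729350, had 4.18, 3.12 and 2.43 in wt and 4.21 and 4.15 in 542 HOXA13 and no 542 HOXD13 call. In a list of 28 Hox and Evx genes, which leaves out part of the HoxB and HoxC clusters, 1 was the nearest protein-coding start of a member (3.57%). A site of all 6 lists was nearest to 14 of them (50.0%). The gene with a member was Hoxc9, with an intronic site 3.45 kb downstream of the start at 3.63, 3.36 and 4.87 in wt HOXA13, 5.56 and 4.97 in 542 HOXA13 and 2.87 in 542 HOXD13.

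Members were spread over many genes. They were nearest to the start of 1452 of 21728 protein-coding genes (6.68%), and 1176 of these had a single member. The gene lists below were chosen with earlier results of these data known, and nearest starts can be far away, so the shares are given as a description beside those of sites called in all 6 lists.

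Of 32 transcription factor genes of the distal limb, 14 had a member (43.8%) and 28 had a site of all 6 lists (87.5%), where 32.9% of all protein-coding genes had one. Their highest-ranked members were an intronic site in Zfhx3, a zinc-finger homeobox gene, with 4.81, 5.22 and 4.96 in wt HOXA13, 7.09 and 7.73 in 542 HOXA13 and 5.06 in 542 HOXD13, a site 154 kb from Tfap2a, which encodes an AP-2 factor, and a site 35.7 kb from Hand2, a bHLH factor gene that acts upstream of Shh in the limb. The Hand2 site had 4.73, 3.62 and 2.77 in wt and 3.93 and 5.06 in 542 HOXA13, and no 542 HOXD13 call. Of 16 proximal limb factor genes 6 had a member (37.5%), among them Pknox2 and Shox2, and 14 had a site of all 6 lists (87.5%). The Pknox2 site was called in none of the 542 lists.

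Signalling genes had members as well. In the Wnt list 14 of 36 genes had one (38.9%) and 24 had a site of all 6 lists (66.7%). The highest-ranked members were at Tcf7l2 and Lef1, which encode the DNA-binding partners of beta-catenin, and at the receptor gene Fzd8. The site 153 kb upstream of Lef1 had 9.05, 5.70 and 3.27 in wt HOXA13, 8.21 and 8.33 in 542 HOXA13 and 8.89 in 542 HOXD13. In the FGF list 4 of 18 genes had a member (22.2%) and 13 had a site of all 6 lists (72.2%). The highest-ranked members were at the receptor gene Fgfr2, the feedback inhibitor gene Spry1 and the ligand gene Fgf10. The intronic Fgfr2 site had 6.34, 5.27 and 3.15 in wt, 9.81 and 7.42 in 542 HOXA13 and 4.12 in 542 HOXD13.

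In the BMP list 5 of 26 genes had a member (19.2%) and 24 had a site of all 6 lists (92.3%). Among the genes with a member were Acvr2a, Gdf6 and Bmpr1a, and of these only the Acvr2a site lacked a 542 HOXD13 call. In the hedgehog list 1 of 14 had a member (7.14%) and 10 had a site of all 6 lists (71.4%). This member was an intronic site in Gli3, the transcription factor that Shh restrains from repression. It had 3.33, 3.31 and 3.60 in wt, 4.98 and 3.46 in 542 HOXA13 and 5.19 in 542 HOXD13. Of 20 Eph receptor and ephrin genes, cell-contact signals that act in limb patterning, 6 had members, 13 sites in all. Of the same 20 genes, 13 had a site of all 6 lists. Of 17 retinoic acid genes 5 had a member (29.4%) and 8 had a site of all 6 lists (47.1%). Members ranked highest at Rarb, a receptor gene, Cyp26b1, which encodes the degrading enzyme of the distal limb, and Aldh1a1, a synthesis enzyme gene.

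Of 29 chondrogenic genes 10 had a member (34.5%) and 23 had a site of all 6 lists (79.3%). The highest-ranked members were at Col11a1, a cartilage collagen gene, Foxc1 and Sox5. The intronic site in Sox5, which encodes a partner of SOX9, had 5.64, 4.81 and 4.39 in wt HOXA13, 9.94 and 6.39 in 542 HOXA13 and 10.7 in 542 HOXD13. In the lists taken as a contrast, 2 of 16 myogenic genes had a member (Mef2a and Pax3). So had 2 of 18 neural genes (Neurod1 and Isl1) and 4 of 88 ribosomal protein genes. Sites of all 6 lists were nearest to 6, 6 and 43 genes in the same order. The myogenic and neural shares with a member lay above those of the hedgehog list (7.14%) and of all protein-coding genes (6.68%). The ribosomal share lay below both. The Pax3 site was called in none of the 542 lists, and the Neurod1 site lies on chromosome 2 past the insertion and was not read there. The ribosomal protein gene sites were distal too, with the highest-ranked 810 kb from Rps29. Across the limb lists other than the Hox genes the share of genes with a member ranged from 7.14% (hedgehog) to 43.8%, and each list had more genes with a site of all 6 wt lists than with a member.

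The 6 genes with most members were Adgrl3 with 7, Efna5 and Zfhx3 with 6 each, and Lrmda, Sorcs3 and Tenm3 with 5 each. Adgrl3 and Tenm3 encode neuronal adhesion proteins, Sorcs3 a sorting receptor and Efna5 an ephrin ligand. Members nearest to Adgrl3 lay between 52.4 and 1432 kb from its start, and 23 sites of all 6 lists were nearest to the same start. All 7 Adgrl3 members were called by both 542 HOXA13 lists and 6 of them by 542 HOXD13. Each of the other 5 genes likewise had as many or more sites of all 6 lists than members, 11 at Efna5, 16 at Zfhx3, 12 at Lrmda, 5 at Sorcs3 and 18 at Tenm3, and 4 of its members were called by 542 HOXD13 in each case.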

How the data were processed

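CUT&RUN peak lists of 9 libraries were analysed, 1 per library. According to the study's methods, the authors trimmed adapters with Cutadapt 1.16, mapped pairs with bowtie2 2.4.1 (wt on mm10, 542 on its mutant genome), dropped alignments with a mapping quality under 30 and discordant pairs, and called peaks per library with MACS2 2.1.1.20160309 on single read ends extended to 200 bp (q of 0.05) with no control. Duplicates, where kept, raise pile-ups. The deposited fold enrichment is a ratio of pile-up to local background, the deposited −log10 p and −log10 q come from a Poisson test of it, and the deposited score is derived from the −log10 q.

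Rows with the same bounds were joined to 1 interval whose main summit has the highest −log10 p. Pile-up and background were solved from fold enrichment and −log10 p for 3000 summits per library (at least 99.9% matched), and the commonest background gave the number of read ends. Gene positions came from GENCODE vM21 basic and sequence from RefSeq GRCm38.p6. Coordinates are 1-based. The scripts were tested on simulated data.

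Sites and gene lists were chosen with earlier results of these data known. Named sites were the 6 highest-ranked with both 542 HOXA13 calls and no 542 HOXD13 call, the 4 highest-ranked, up to 5 in each of the HoxD locus and the HoxA region, up to 3 genes per list, and the 6 genes with most sites; a site that this rule names is not reported here. Tests were exact permutations of labels or signs over libraries, adjusted by Benjamini-Hochberg over the 3 tests. Shares have 95% Wilson intervals. Alternatives were stricter thresholds, equal list lengths, 50% cover of a site, other merging, autosomes and X only, other windows and words, each library left out, and the replicate number as a block. Python packages were scipy 1.17.1, numpy 2.4.6, pysam 0.24.0 and pandas 2.3.3.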

Additional observations from a re-analysis of the deposited data

How the results depend on the processing

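The number of HOXA13-only sites fell to 622 with a fold enrichment of at least 5 and to 569 with the 20000 strongest intervals of every list, and ranged from 1979 to 6548 with a wt library left out. Subsets chosen after seeing the data gave 7425 sites on replicates 1 and 2 and 29252 on replicate 3, whose intervals carry another naming pattern in both antibodies. The share at promoters was 1.86% with a −log10 q of at least 5, 3.76% with 50% cover, 5.25% within 2.5 kb, 2.37% to 11.8% with a library left out, and 4.48% and 10.0% in the same 2 subsets. The median width was 798, 983, 890 and 745 bp with the −log10 q, fold, equal-length and cover settings, 490.5 to 717 bp with a library left out, and 501 and 342 bp in the subsets. The mean difference of all 3 tests kept its sign under every alternative, though single libraries and pairings did not. With a library or pair left out, the held-out difference ranged from 1.58 to 2.05, the 542 difference from 0.42 to 1.38 and the consensus difference from 2.29 to 4.86 percentage points. With the 20000 strongest intervals of every list these differences were 2.43, 3.22 and 12.3, respectively. No test could pass 0.05 at these numbers of libraries.

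Same-numbered wt libraries were not shown to be paired for replicates 1 and 2. Deviations of same-numbered libraries correlated by 0.09, 0.14 and 0.35 for replicates 1, 2 and 3, and HOXA13 replicate 1 correlated best with HOXD13 replicate 2 (0.23). These are correlations across sites of presence in the 20000 strongest intervals. For log2 fold enrichment at sites of all 6 lists they were -0.02, 0.23 and 0.54, and between a replicate 3 library and a replicate 1 or 2 library of the other antibody they lay between -0.45 and -0.14. Deviations were taken from the mean of the 3 libraries of an antibody, so a positive value for a pair forces negative values beside it. The negative values are therefore not separate evidence. The values of the replicate 3 pair, 0.35 and 0.54, were the highest of all pairs in both measures. The study's reporting summary lists longer reads for replicate 3 than for replicates 1 and 2 in both antibodies. With the replicate block the held-out difference was 1.89 (exact sign-flip permutation p = 0.25, the smallest possible) and the consensus difference 3.91 percentage points (p = 0.25).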
